A study of Mus musculus with 12 samples.

Results

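The 8 genes described here are the oligoadenylate synthetase genes Oas1a, Oas1b, Oas1c, Oas1g, Oas2, Oas3, Oasl1 and Oasl2. They are the rows of the deposited count table whose gene name is one of these 8 names, out of 54532 rows, and each name stood on 1 row. The study measured poly-A RNA by sequencing in primary B lymphocytes from wild type mice and from mice labelled Tmem173-/-. Tmem173 encodes STING, a receptor for cyclic dinucleotides. The 4 groups were wild type B cells given 3'3'-cGAMP, a bacterial cyclic dinucleotide, for 12 hours, wild type control B cells, Tmem173-/- B cells given the same agent for the same time, and Tmem173-/- control B cells. Each group held 3 libraries, from 3 mice per genotype. No source used here states the mouse strain, age or type of Tmem173 allele, or what the control wells received. The submitters' short names for the Tmem173-/- libraries begin with GT, which the labels do not explain.

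Oligoadenylate synthetases are sensors of double-stranded RNA in the cytosol. Once bound to it, the active enzymes join ATP into short chains called 2-5A, which activate a nuclease that cuts viral and cellular RNA. The genes belong to the classical interferon-stimulated genes, which are transcribed when type I interferon acts through its receptor, the kinases Jak1 and Tyk2 and transcription factors such as Stat2. The mouse has more copies of Oas1 than humans do, and some copies or relatives have lost the enzymatic activity. All 8 lie on chromosome 5, Oasl2 and Oasl1 side by side, and the other 6, from Oas2 to Oas1a, in a second group 5792418 bases away.

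Libraries held 26490593 to 31417833 counts, and 14473 genes had enough counts to be tested. The B cell markers Ms4a1, Cd79a, Cd79b and Pax5 were present in all groups, with sums of 2169 to 2576 CPM (counts scaled to library size) in wild type cGAMP libraries against 3663 to 4517 CPM in wild type control libraries, and 3857 to 4631 CPM in Tmem173-/- cGAMP libraries against 3944 to 4355 CPM in Tmem173-/- control libraries. Both wild type libraries numbered 1 stood apart in markers of other cells. Their sums of 5 neutrophil markers were 21.7 CPM with cGAMP and 8.12 CPM without, against 0 to 1.63 CPM in the other 10 libraries. Ly6g, the defining neutrophil marker, was at 0 throughout. RNA of Tmem173 itself was not lower in control libraries labelled Tmem173-/- than in wild type control libraries (92.7 ± 11.5 and 95.3 ± 5.95 CPM, SD, n = 3 each, log2 difference -0.04, edgeR adjusted p = 0.935). The level of this RNA in control libraries therefore does not tell the genotypes apart, and the genotype is taken from the labels. Directions between genotypes below are those between libraries labelled Tmem173-/- and libraries labelled wild type.

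In wild type B cells all 8 genes were higher after cGAMP. The fitted changes were largest for the 2 OASL genes, followed by Oas1g, Oas2 and Oas3, and smallest for Oas1c. The place of Oas1g in this order is not firm: without wild type control replicate 3 its change was the largest, at 5.34, and by limma-voom it was 4.17, against 4.13 for Oasl2. Both values of Oas1g rest on few counts, as it had only 10 over the wild type control libraries. Values per library are in CPM after scaling by TMM, and changes are log2 fold changes with their standard error (SE) from edgeR's quasi-likelihood test, with p adjusted by Benjamini-Hochberg over the 14473 tested genes and a threshold of 0.05. All 8 passed, with a median log2 fold change of 3.31, against -0.0036 over the tested genes, of which 22.4% passed as higher. Oas1g is counted here, although it had enough counts to be tested only through the wild type cGAMP libraries, where it was high. In all 8 the wild type cGAMP libraries lay above the wild type control libraries without overlap, as they did in 26.0% of the tested genes. In bulk RNA a change per cell and a change in the share of expressing cells cannot be told apart.

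Oasl1 lacks synthetase activity and carries ubiquitin-like repeats; in the mouse it is known to hold back translation of Irf7 mRNA. It had 946, 964 and 965 CPM in wild type cGAMP libraries, against 22.2, 36.2 and 72.9 CPM in wild type control libraries. The cGAMP libraries agree closely with each other, while the control libraries spread over a wide range, replicate 3 being the highest. The log2 fold change was 4.45 (SE 0.39, edgeR adjusted p = 1.43e-05), a 21.9-fold change.

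Oasl2 has the same ubiquitin-like repeats and, in the mouse, keeps synthetase activity. Its levels were 291, 298 and 268 CPM in wild type cGAMP libraries, against 9.48, 13.3 and 34.2 CPM in wild type control libraries. Again control replicate 3 was the highest of its group and still far below every cGAMP library. Oasl2 rose by 3.91 on the log2 scale (SE 0.43, edgeR adjusted p = 8.34e-05).

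Oas2 and Oas3 encode the larger synthetases, built from more than 1 synthetase unit. Oas3 makes 2-5A at low concentrations of long double-stranded RNA. Its CPM were 238, 200.2 and 198 in wild type cGAMP libraries, against 11.3, 18.1 and 51.3 in wild type control libraries. The change was 2.98 (log2, SE 0.51, edgeR adjusted p = 0.00144). Oas2 had 94.0, 136 and 87.5 CPM in wild type cGAMP libraries, against 3.85, 10.7 and 10.7 CPM in wild type control libraries. Here control replicate 1 was low and the other two were alike. Oas2 rose by 3.65 (log2, SE 0.48, edgeR adjusted p = 0.00024).

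Among the small synthetases, Oas1a encodes an active enzyme. It had 62.7, 77.8 and 60.1 CPM in wild type cGAMP libraries, against 9.58, 16.3 and 28.0 CPM in wild type control libraries. The log2 fold change was 1.90 (SE 0.29, edgeR adjusted p = 0.00025). Oas1b is known from mice as the gene whose full-length form gives resistance to flaviviruses, and the annotation lists it as a polymorphic pseudogene. Levels of Oas1b were 31.2, 46.8 and 31.2 CPM in wild type cGAMP libraries, against 6.91, 15.2 and 6.68 CPM in wild type control libraries. In this gene control replicate 3 was the lowest of its group and replicate 2 the highest. Oas1b changed by 1.92 (log2, SE 0.35, edgeR adjusted p = 0.00097).

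Oas1c was the least changed member. It had 13.5, 20.8 and 16.6 CPM in wild type cGAMP libraries, against 9.19, 13.1 and 10.8 CPM in wild type control libraries. The lowest cGAMP library was just above the highest control library. Oas1c rose by 0.62 (log2, SE 0.17, edgeR adjusted p = 0.00645), a 1.54-fold change. Its exons overlap those of Gm43069, on the opposite strand, by 227 bases.

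Oas1g, the closest relative of Oas1a, was at the lower limit of detection outside the wild type cGAMP libraries. It had 2.04, 2.24 and 0.57 CPM in wild type cGAMP libraries, against 0.071, 0 and 0.283 CPM in wild type control libraries. These are 137 counts in all with cGAMP and 10 without, and a count of 3 in 1 library corresponds to 0.0955 to 0.113 CPM. The log2 fold change was 3.73 (SE 0.78, edgeR adjusted p = 0.00099), and the ratio of the summed counts was 13.7, with an exact 95% interval of 7.24 to 29.3 that covers counting error only. As Oas1g entered the tested genes only through the wild type cGAMP libraries, this p-value is no independent support for the rise. Of the 50-base stretches of Oas1a transcripts, 57.6% also occur in Oas1g transcripts, and of those of Oas1g 45.7% occur in another Oas gene, so how the authors' counting split such reads bears on both genes. The share was 9.82% for Oas1c, 1.17% for Oas1b and 0 for Oas2, Oas3, Oasl1 and Oasl2.

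**Figure D1:**
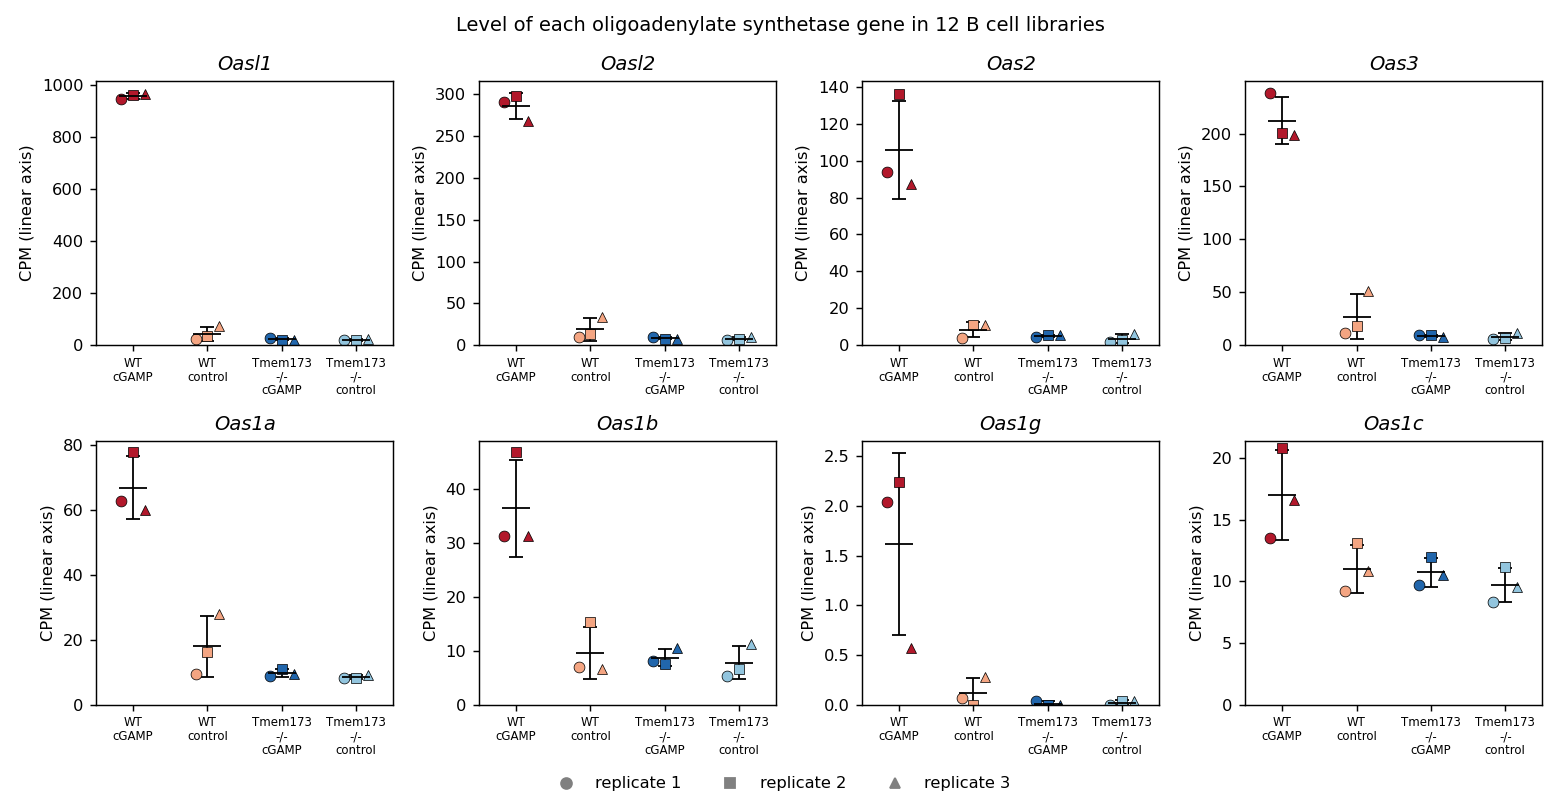
CPM of each of the 8 genes in the 12 libraries, on linear axes that start at 0 and differ between panels. Points are libraries, horizontal marks are group means and bars are SD (n = 3). In each panel the 3 wild type cGAMP libraries lie above the libraries of the other 3 groups.

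Each of the 8 calls held in all 15 alternative analyses of this comparison. These include the fit with no filter on low counts, whose calls between the control groups are not relied on below. That fit therefore adds no support here. Wild type control replicate 3 decides the size for part of the family. It was the highest control library for Oasl1, Oasl2, Oas3, Oas1a and Oas1g. Without it the log2 fold change was 5.03 for Oasl1, 4.64 for Oasl2, 3.85 for Oas3, 2.36 for Oas1a and 5.34 for Oas1g, against 3.85 for Oas2, 1.71 for Oas1b and 0.60 for Oas1c. The value of Oas1g then rests on very few counts in the remaining control libraries. Without the 2 wild type libraries numbered 1, those with neutrophil, T cell and NK cell markers, the changes ranged from 0.64 for Oas1c to 4.14 for Oasl1. Dendritic cell markers were also higher in wild type cGAMP libraries, with a sum over 5 genes of 36.5 to 44.8 CPM against 15.0 to 20.1 CPM in wild type control libraries, and monocyte and macrophage markers were lower, with 10.7 to 18.7 CPM against 36.1 to 46.3 CPM. Their part in the changes of the family was not tested.

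The relative make-up of the family can be read only per length of transcript, for which the deposited FPKM (fragments per kilobase, scaled to library size) were used. Summed FPKM of the 8 genes were 1246 ± 37.8 in wild type cGAMP libraries and 87.0 ± 39.7 in wild type control libraries (SD, n = 3 each). They were 52.1 ± 2.39 in Tmem173-/- cGAMP libraries and 47.4 ± 10.6 in Tmem173-/- control libraries. Oasl1 had the highest FPKM of the 8 in each of the 12 libraries. It made up 66.1% ± 1.83 of the sum in wild type cGAMP libraries and 39.5% ± 3.67 in wild type control libraries, against 37.5% ± 3.45 in Tmem173-/- cGAMP libraries and 38.5% ± 1.85 in Tmem173-/- control libraries (SD, n = 3 each). The share of Oas1c was lower with cGAMP, at 1.19% ± 0.23 of the sum in wild type cGAMP libraries and 12.1% ± 4.85 in wild type control libraries.

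By mean FPKM the order in wild type cGAMP libraries was Oasl1, Oasl2, Oas3, Oas2, Oas1a, Oas1b, Oas1c and Oas1g. Oas2 and Oas1a, with 39.2 ± 9.89 and 36.2 ± 5.25 FPKM, differ by less than their spread. In Tmem173-/- control libraries the order was Oasl1, Oas1c, Oasl2, Oas1b, Oas1a, Oas3, Oas2 and Oas1g. There, Oasl2, Oas1b and Oas1a stood within their spread of each other, at 5.95 ± 1.35, 5.58 ± 2.35 and 4.60 ± 0.41 FPKM. The length behind each FPKM is not the length given in the table for 7 of the 8 genes. With CPM per kilobase of the table's length, Oas1a moved to the third place in wild type cGAMP libraries, ahead of Oas3, while Oasl1 stayed first and Oasl2 second. On the same scale the order in Tmem173-/- control libraries was Oasl1, Oas1a, Oas1c, Oas1b, Oasl2, Oas3, Oas2 and Oas1g, with Oas1a in the second place and Oasl2 in the fifth.

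**Figure D2:**
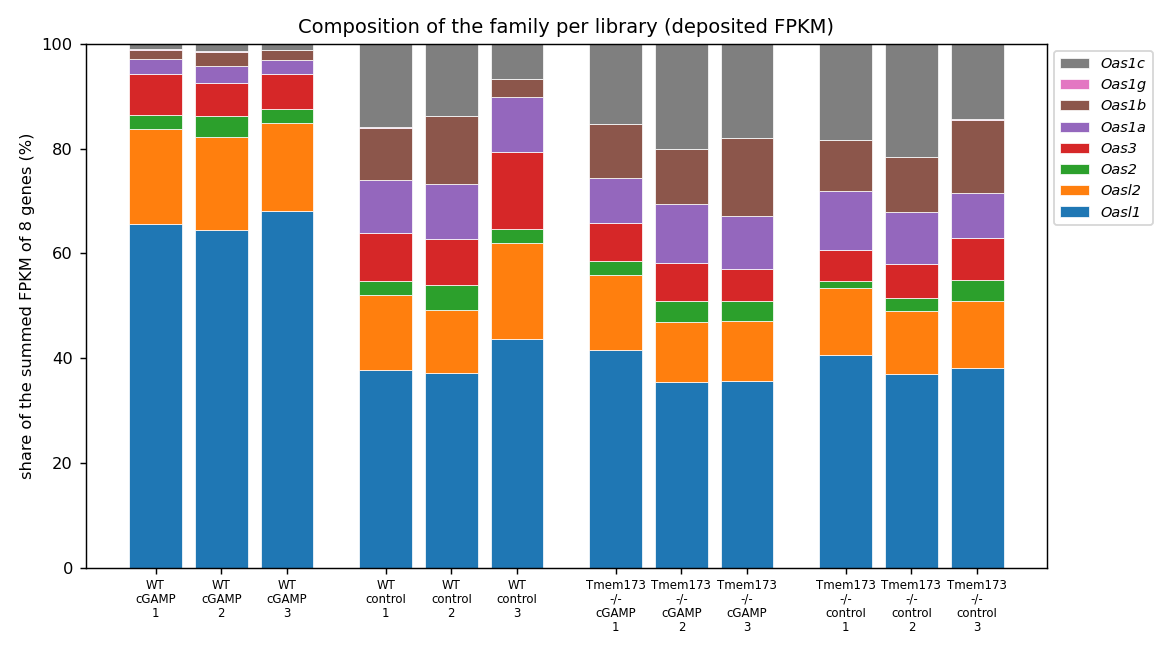
Share of each gene in the summed deposited FPKM of the 8 genes, in percent, 1 bar per library. The Oasl1 share is 64.5 to 68.1% in wild type cGAMP libraries and 35.5 to 43.7% in the other 9 libraries.

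The stretches just before the transcription start are shown because Oas1a, Oas1g and the pair Oas1b and Oas1c share a run of letters there. The motif searched was GAAA followed, after any 2 bases, by a second GAAA, the core of the interferon-stimulated response element, a sequence found in promoters of interferon-stimulated genes. RefSeq promoter windows (GRCm38.p6, 250 bases before to 50 after each start) were available for 6 of the 8 members, all but Oas2 and Oas1b. Both strands were searched, and matches may overlap. Each line gives the last 120 bases before a start, 5′ to 3′ on the strand of the gene, with matches in capitals.
Oas1a, chr5:120907526-120907645, minus strand: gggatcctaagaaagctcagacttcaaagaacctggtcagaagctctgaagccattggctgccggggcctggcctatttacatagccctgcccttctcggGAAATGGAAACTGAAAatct
Oas1g, chr5:120887614-120887733, minus strand: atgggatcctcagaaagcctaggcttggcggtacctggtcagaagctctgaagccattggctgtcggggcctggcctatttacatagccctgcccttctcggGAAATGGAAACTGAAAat
Oas1c, chr5:120812515-120812634, minus strand: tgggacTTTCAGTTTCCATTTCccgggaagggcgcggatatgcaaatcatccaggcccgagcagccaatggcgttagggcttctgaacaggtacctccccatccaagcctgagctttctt
Oas3, chr5:120777660-120777779, minus strand: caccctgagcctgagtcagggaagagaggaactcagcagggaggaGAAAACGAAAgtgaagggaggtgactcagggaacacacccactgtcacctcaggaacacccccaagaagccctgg
Oasl1, chr5:114923120-114923239, plus strand: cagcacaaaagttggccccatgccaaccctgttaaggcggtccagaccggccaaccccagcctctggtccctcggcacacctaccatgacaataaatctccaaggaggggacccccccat
Oasl2, chr5:114896814-114896933, plus strand: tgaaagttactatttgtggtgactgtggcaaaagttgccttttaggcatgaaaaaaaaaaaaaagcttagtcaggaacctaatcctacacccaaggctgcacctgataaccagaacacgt

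Oas1a and Oas1g each held 2 overlapping matches on the gene's own strand, which together form the same 16 letters, 20 to 5 bases before the start in Oas1a and 18 to 3 bases before it in Oas1g. In Oas1c the same 16 letters lay on the opposite strand, 114 to 99 bases before the start. Oas1b runs the other way from there: its annotated start is 121 bases from that of Oas1c, so the letters lie 22 to 7 bases before the start of Oas1b and on its strand. Of this head-to-head pair, Oas1b rose by 1.92 and Oas1c by 0.62 (log2), while Oas1a rose by 1.90 and Oas1g by 3.73. Oas3, without the 16 letters, rose by 2.98, and Oasl1 and Oasl2, also without them, by 4.45 and 3.91. Whether the letters or their place bear on the size of a rise was not tested. A test of the difference between these genes was not made. Oas3 held 1 match, 75 to 66 bases before its start. The windows of Oasl1 and Oasl2 held no exact match and, with 1 mismatch allowed, 2 and 1. Of all 32851 windows, 3.44% held an exact match, 35.4% one with up to 1 mismatch, and 7 windows held the 16 letters. A match is a run of letters and does not show that a factor binds there. The core TTCNNNGAA of the gamma-activated site, which reads the same on both strands, stood once in Oas1a and in none of the other 5 windows, against 8.30% of all windows.

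In cells labelled Tmem173-/-, no member passed the test of cGAMP against control. None of the 14473 tested genes did (0.0% called by edgeR; 203 at an unadjusted p under 0.05, none of them a member; DESeq2 and limma-voom called 0 genes as well). With no filter on low counts, edgeR called 23 of 26792 genes, no member among them, and 1 member had an unadjusted p under 0.05. The groups overlapped in all 8 members, against 3.2% of tested genes with higher and 3.44% with lower values without overlap. Oasl1 had 27.0, 21.6 and 21.1 CPM in Tmem173-/- cGAMP libraries, against 18.9, 19.5 and 25.8 CPM in Tmem173-/- control libraries. The 95% limma-voom interval of its log2 difference was -0.55 to 0.80. Intervals were of like width for Oasl2, at -0.71 to 1.00, and Oas1a, at -0.51 to 0.88. They were wider for Oas2, at -0.38 to 1.86, and Oas3, at -0.92 to 1.26. Oas2 had 4.24, 5.59 and 5.40 CPM in Tmem173-/- cGAMP libraries, against 1.54, 3.09 and 6.24 CPM in Tmem173-/- control libraries. The interval was -0.48 to 0.95 for Oas1b and -0.24 to 0.55 for Oas1c. Oas1g had 1 count in Tmem173-/- cGAMP libraries and 2 in Tmem173-/- control libraries, too few for a fold.

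**Figure D3:**
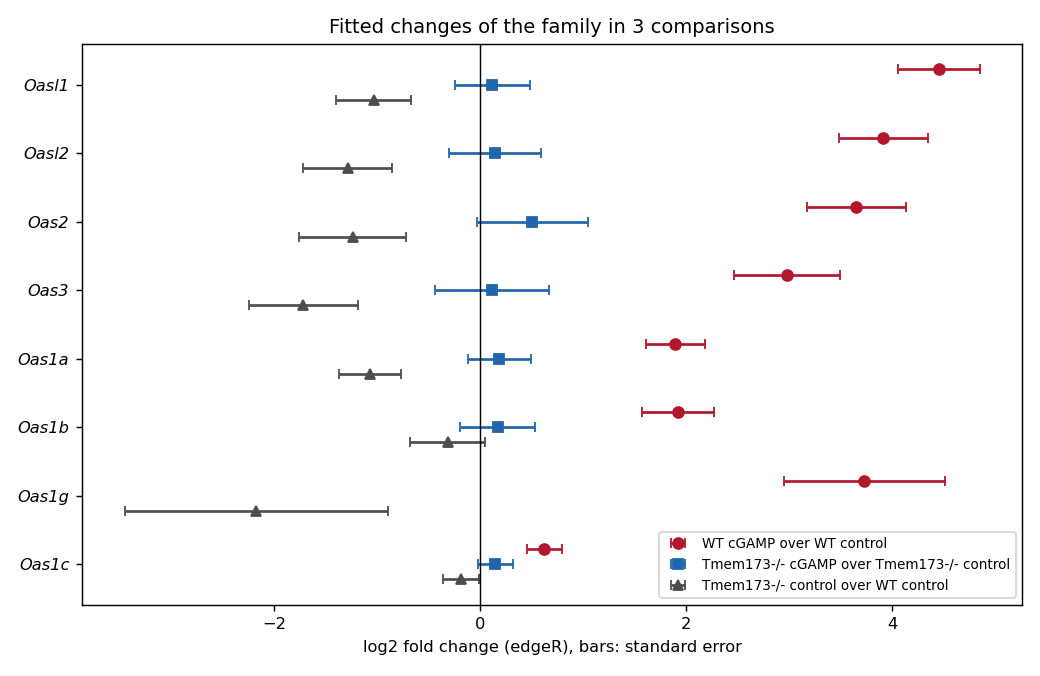
Log2 fold change of each member with its standard error (edgeR, 3 libraries per group) in 3 comparisons. Changes after cGAMP lie between 0.62 and 4.45 in wild type cells and between 0.11 and 0.51 in cells labelled Tmem173-/-, where Oas1g is left out for its low counts, while differences between the control groups all lie below 0. The Oas1g difference between the control groups also rests on few counts.

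The difference between the responses was tested as an interaction, the response of cells labelled Tmem173-/- minus that of wild type cells. It was below 0 for 6 of the 8 members at an adjusted p under 0.05, against 14.1% of tested genes lower. It was -4.33 (SE 0.52, edgeR adjusted p = 0.00026) for Oasl1 and -3.77 (SE 0.61, adjusted p = 0.00172) for Oasl2. The value was -3.14 for Oas2 (SE 0.71, adjusted p = 0.0095) and -2.87 for Oas3 (SE 0.74, adjusted p = 0.0187). Oas1a gave -1.71 (SE 0.42, adjusted p = 0.00957) and Oas1b -1.75 (SE 0.50, adjusted p = 0.0213). The remaining members did not pass. For Oas1c the interaction was -0.47 (edgeR adjusted p = 0.152). For Oas1g it was -4.49 with an SE of 2.36 (edgeR adjusted p = 0.162). The call of Oas1b was lost without wild type control replicate 3 (adjusted p = 0.0521), without Tmem173-/- cGAMP replicate 1 (0.0591) or 2 (0.058), without Tmem173-/- control replicate 3 (0.0601) and without both wild type libraries numbered 1 (0.052). That of Oas3 was lost without Tmem173-/- control replicate 3 (0.0542), and Oas1g passed with DESeq2 (0.0456) and on the FPKM scale (0.0134). These passes of Oas1g are no independent support, as it entered the tested genes only through the wild type cGAMP libraries. With the replicate number within genotype as a block, which the labels do not tie to a mouse, Oas3 lost its call (edgeR adjusted p = 0.0553). Under that block Oas1c passed (0.0221).

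With cGAMP in both genotypes, all 8 members were lower in cells labelled Tmem173-/- than in wild type cells, against 23.5% of tested genes lower, and without overlap, against 29.2% of tested genes. The log2 differences ran from -0.66 for Oas1c (SE 0.17, edgeR adjusted p = 0.00415) to -5.36 for Oasl1 (SE 0.41, adjusted p = 4.84e-06), leaving aside Oas1g. Oas3 had 9.86, 9.25 and 7.54 CPM in Tmem173-/- cGAMP libraries, against 238, 200.2 and 198 CPM in wild type cGAMP libraries. Oasl2 had 10.4, 7.82 and 7.64 CPM in Tmem173-/- cGAMP libraries, against 291, 298 and 268 CPM in wild type cGAMP libraries. For Oas1g, 1 count stood against 137, a ratio of 0.00715 with an exact counting interval of 0.00018 to 0.0405. Oas1g entered the tested genes only through the wild type cGAMP libraries, so its place among the 8 is not independent of this comparison. This comparison uses the same wild type cGAMP libraries as the response above.

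Without cGAMP, no member passed between the genotypes, and no tested gene did (0.0% called by edgeR; 921 genes at an unadjusted p under 0.05, 5 of them members; DESeq2 called 4 genes, no member, and limma-voom 0). The log2 differences, cells labelled Tmem173-/- against wild type cells, were below 0 for all 8, with a median of -1.15 against -0.0068 over the tested genes. Oas1g is counted among the 8 on only 2 counts in Tmem173-/- control libraries and 10 in wild type control libraries. The difference of Oas1b was -0.32 and turned to 0.18 without wild type control replicate 2. Oas1a had 8.31, 8.26 and 9.23 CPM in Tmem173-/- control libraries, against 9.58, 16.3 and 28.0 CPM in wild type control libraries. It was the one member whose groups did not overlap, as in 4.08% of tested genes with lower values, and its log2 difference was -1.06 (SE 0.30, edgeR adjusted p = 0.728, limma-voom interval -1.57 to -0.30). Oas3 had 5.85, 7.22 and 11.6 CPM in Tmem173-/- control libraries, against 11.3, 18.1 and 51.3 CPM in wild type control libraries. Its highest Tmem173-/- control library exceeded the lowest wild type control library by a little, and the log2 difference was -1.71 (SE 0.53, adjusted p = 0.728). For several members the size rests on wild type control replicate 3. Without it the differences were -0.60 for Oas1a, -0.84 for Oas3, -0.45 for Oasl1, -0.55 for Oasl2, -1.03 for Oas2, -0.55 for Oas1g, -0.52 for Oas1b and -0.20 for Oas1c, none past the threshold. The counts left for Oas1g are too few for its value to be read as a fold. Calls appeared under other settings. With no filter on low counts, 5 members passed as lower, beside 0.444% of 26792 genes. That fit gave Oas3 an edgeR adjusted p of 7.2e-45 although its groups overlap, which is out of proportion to 3 libraries per group. These 5 calls are therefore not read as a difference. Oas1a passed without wild type control replicate 1, when 0.00671% of genes were lower, and without both wild type libraries numbered 1, when 0.00676% were. Each of these shares is 1 gene, Oas1a itself.

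Of the rest of the 2-5A pathway, 7 genes were considered and 3 had enough counts to be tested. In wild type cells with cGAMP, 2 were higher and 1 lower, in a comparison where 22.4% of tested genes were higher and 25.4% lower. Abce1, known for recycling ribosomes, averaged 352.5 ± 22.5 CPM in wild type cGAMP libraries and 254 ± 37.9 CPM in wild type control libraries (SD, n = 3 each). It rose by 0.47 (log2, SE 0.11, edgeR adjusted p = 0.00235). Pde12, a phosphodiesterase that degrades 2-5A, was higher by 0.25 (SE 0.09, edgeR adjusted p = 0.0354, lost in 6 alternative analyses). Akap7 was lower, with a log2 fold change of -0.56 (SE 0.16, edgeR adjusted p = 0.00986, lost without wild type control replicate 2).

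The other 4 genes of that list are the further Oas1 copies of the same cluster. Oas1d and Oas1f had no count in any library. Oas1e had 9 counts, in 2 of the 3 wild type cGAMP libraries, against 0 in wild type control libraries. With a floor of 3 counts over the group in place of the 0, the ratio is 3.01. It is not a lower limit, as it leaves out counting error in the 9 counts and the spread between libraries. Oas1h had 2 counts, both with cGAMP in wild type cells, and neither gene had any in libraries labelled Tmem173-/-. Oas1e shares 10.7% of its 50-base stretches with other Oas genes.

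Of 6 genes of interferon signalling considered, 2 were higher in wild type cells with cGAMP, 2 were lower and 2 did not pass, beside 22.4% of all tested genes higher and 25.4% lower. Irf7, a transcription factor that amplifies interferon production and is itself interferon-stimulated, had 629, 760 and 609 CPM in wild type cGAMP libraries, against 15.2, 35.2 and 89.3 CPM in wild type control libraries. Its rise of 3.84 (log2, SE 0.59, edgeR adjusted p = 0.00076) is of the size seen in Oasl2, and control replicate 3 was again the highest of its group. Stat2, a transcription factor downstream of the interferon receptor, rose by 1.28 (log2, SE 0.14, edgeR adjusted p = 3.79e-06). The receptor chain Ifnar1 fell by 0.53 and Jak1 by 0.54, with edgeR adjusted p = 0.00025 and 0.00014. Ifnar2 and Tyk2 gave -0.16 and -0.07, with limma-voom intervals of -0.33 to 0.01 and -0.26 to 0.13.

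The genes whose profile over the 12 libraries lay nearest to the median profile of the 8 members were Slfn1, Usp18, AW011738, Rtp4 and Gbp6. Likeness was the root mean square difference of centred log2 CPM over 12 libraries, among 9484 genes that were not members and had a mean of at least 5 CPM. It was 0.255 for Slfn1, 0.31 for Usp18, a protease that removes the ubiquitin-like protein Isg15, 0.339 for AW011738, 0.358 for Rtp4 and 0.36 for Gbp6, with a median of 1.78 over all genes compared. By the same measure the members lay between 0.364 for Oas3 and 1.48 for Oas1c, with Oas1b second farthest at 0.951. Usp18 had 193, 236 and 196 CPM in wild type cGAMP libraries, against 8.73, 15.8 and 40.4 CPM in wild type control libraries, again with replicate 3 highest. As the nearest genes were picked for this likeness over the same 12 libraries, their sharing of the pattern is no separate result.

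Around the members, 50 other genes start within 250 kb of either group of family genes, and 27 of them were tested. In wild type cells with cGAMP, 3 were higher and 14 lower, beside 22.4% and 25.4% of all tested genes, with a median log2 fold change of -0.34. The 2 largest rises were of transcripts that lie within the groups of family genes. Gm13822 (chr5:114917318-114923277, minus strand), annotated as antisense, overlaps exons of Oasl1 by 38 bases and rose by 3.30 (log2, SE 0.35, edgeR adjusted p = 1.29e-06), with 5.03 ± 2.06 CPM in wild type cGAMP libraries and 0.507 ± 0.106 CPM in wild type control libraries (SD, n = 3 each). Gm43068 (chr5:120746036-120747308, plus strand) lies inside the span of Oas2 and rose by 3.80 (SE 0.75, adjusted p = 0.00059), on 88 counts with cGAMP and 6 without. Gm43068 had enough counts to be tested only through the wild type cGAMP libraries, where it was high. Its p-value and its place among the 3 higher genes are therefore no independent support for the rise. The use of strand in counting is not given in the sources used here. Reads from the 38 shared bases, 1.46% of the exonic bases of Oasl1, may therefore belong to either gene, while Oas2 shares no exonic base with another gene. Within Gm43068, reads of that transcript and of unspliced Oas2 RNA cannot be told apart. Gm13822 had 0.464 ± 0.021 CPM in Tmem173-/- cGAMP libraries and 0.148 ± 0.048 CPM in Tmem173-/- control libraries (SD, n = 3 each), a difference that did not pass. Outside, the nearest tested gene to Oasl1 was 2210016L21Rik, 4.2 kb away, which fell by 0.29 (log2, SE 0.08, edgeR adjusted p = 0.00515). Dtx1, a regulator of Notch signalling 18.4 kb from Oas2, fell by 0.56 (SE 0.08, adjusted p = 2.12e-05). The third rise was of Tchp, 174.6 kb from Oasl2, by 0.44 (SE 0.15, adjusted p = 0.0265, lost in 4 alternative analyses).

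**Figure D4:**
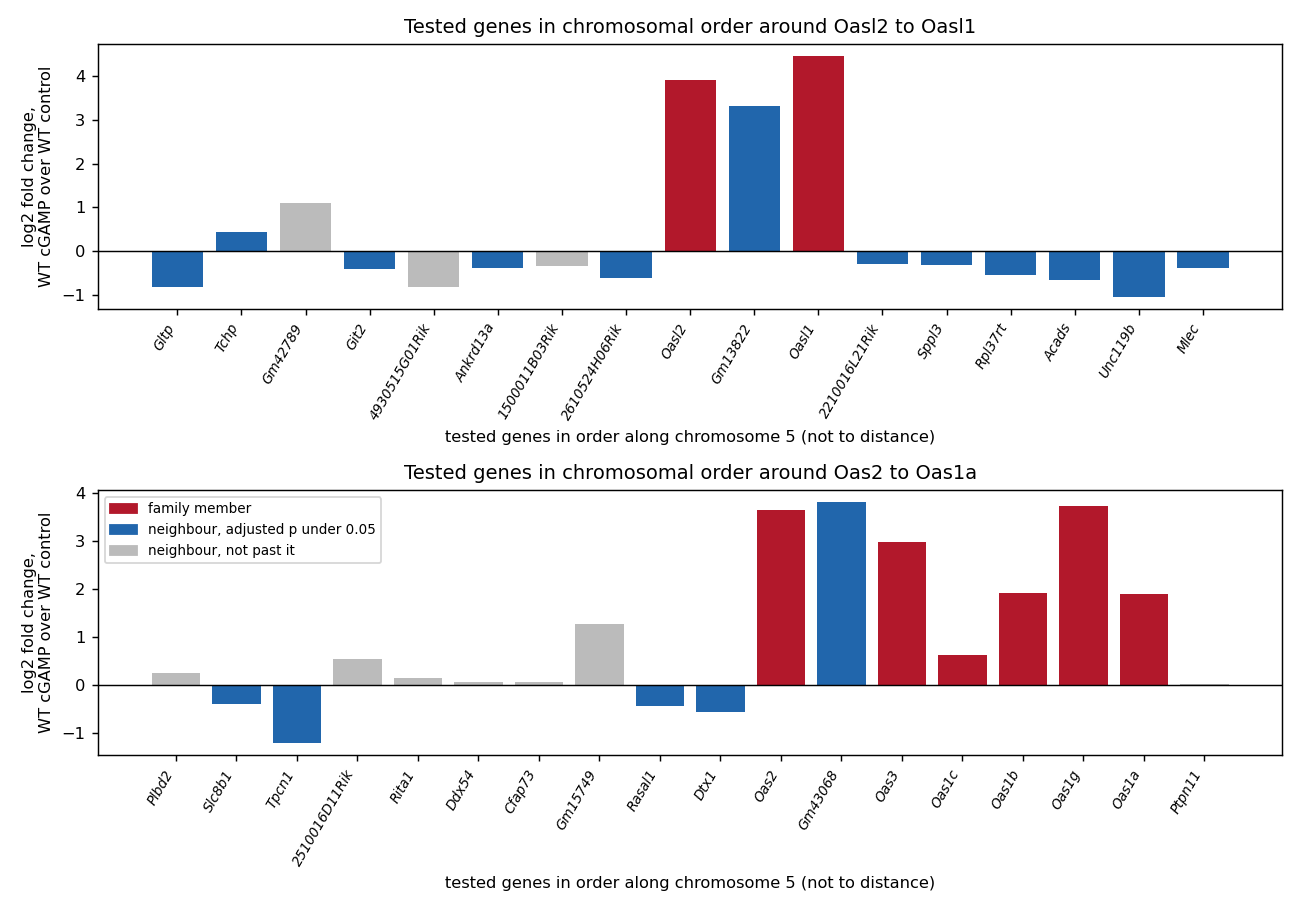
Log2 fold change, wild type cGAMP over wild type control (edgeR), of the tested genes around both groups of family genes, in their order along the chromosome and not to distance. Members and the transcripts within them reach 0.62 to 4.45, and of the tested neighbours outside only Tchp passed as higher.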

How the data were processed

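The authors deposited, as counts, the whole-number reads per gene for 12 libraries and, as a second unit, FPKM. Per the submitters' processing notes, fastp, STAR and featureCounts were used with GRCm38 and mm10; versions, strand setting and annotation release are not given in the sources used here. No row named no gene. FPKM were proportional to counts within each gene, but the length they imply matched the deposited gene length for 11486 of 26792 genes with a count.

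The test was edgeR 4.0.16 in R 4.3.3 on the deposited counts. A filterByExpr filter by group left 14473 genes, followed by TMM scaling, robust quasi-likelihood F tests (two-sided) over all 12 libraries with 1 mean per group, 5 contrasts, and Benjamini-Hochberg adjustment within each over all tested genes (threshold 0.05). Intervals are 95% limma-voom intervals (limma 3.58.1). The edgeR fit was tried on simulated counts of independent libraries, with a single dispersion for all genes. That trial does not cover libraries that share mice, or genes that spread as widely as the members did in wild type control libraries. Labels do not tie equal numbers to a mouse. With 3 mice per genotype and 6 libraries, libraries of a genotype share mice, so p-values measure the spread between libraries. Alternatives were DESeq2 1.42.0, limma-voom, limma-trend on log2(FPKM + 1), other scaling, no filter, only the groups compared, a replicate block and leaving out libraries.

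The members and lists were chosen with earlier results of these data known. Named genes were the members, the 2-5A list (Abce1, Pde12, Akap7, Oas1d, Oas1e, Oas1f, Oas1h), the interferon signalling list (Ifnar1, Ifnar2, Jak1, Tyk2, Stat2, Irf7), genes starting within 250 kb, the 5 nearest profiles and Tmem173. Marker lists held 4 B cell genes and 5 genes for each other cell type. Some genes of the lists are not reported here. Coordinates are those of the table, and the spans of the 8 members are the same in GENCODE mouse release 21. Transcript stretches were compared on that release. A planned comparison of proteins was not run, as no protein sequences were used here.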

Additional observations from a re-analysis of the deposited data

Results flagged for a closer look

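Each result here was marked because the response to cGAMP differed between the genotypes by the interaction test of edgeR (adjusted p under 0.05). Values are log2, the response of cells labelled Tmem173-/- minus that of wild type cells, with 3 libraries in each of the 4 groups. Of the family, Oasl1 gave -4.33, Oasl2 -3.77, Oas2 -3.14, Oas3 -2.87, Oas1b -1.75 and Oas1a -1.71. Oas3 was called in 18 of 20 alternative analyses and Oas1b in 15 of 20. Of the genes with the nearest profiles, AW011738 gave -3.67, Usp18 -3.03, Gbp6 -2.62 and Slfn1 -2.56. These genes were picked for their likeness to the members over the same libraries, so their values are no independent support. In interferon signalling the difference was -3.60 for Irf7 and -1.30 for Stat2, and above 0 for Jak1 at 0.54 and Ifnar1 at 0.47 (lost in 3 of 20 alternative analyses). Abce1 of the 2-5A list gave -0.46 (lost in 7 alternative analyses). Among neighbours on the chromosome Gm13822 gave -1.68 (adjusted p = 0.0474, lost in 13 of 20 alternative analyses), Dtx1 0.46 and 2210016L21Rik 0.35 (lost in 3). Tmem173 gave 1.02, with 47.3 ± 2.37 CPM in wild type cGAMP libraries and 95.3 ± 5.95 CPM in wild type control libraries, against 93.3 ± 9.45 CPM in Tmem173-/- cGAMP libraries and 92.7 ± 11.5 CPM in Tmem173-/- control libraries (SD, n = 3 each).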

How the results depend on the processing

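All 8 calls in wild type cells, all 8 between genotypes with cGAMP and none in cells labelled Tmem173-/- were the same in each alternative analysis run. The fit with no filter on low counts is among these analyses and adds no support. Between control groups, where no member was called, 5 (Oas1a, Oas2, Oas3, Oasl1 and Oasl2) passed with no filter on low counts, beside 0.444% of 26792 genes lower. The edgeR adjusted p of Oas3 was then 7.2e-45 although its groups overlap, so these 5 calls are not read as a difference. Oas1a was 1 member called without both wild type libraries numbered 1 (adjusted p = 0.0279). Leaving out 1 library at a time gave 0 to 1 member, the 1 being Oas1a without wild type control replicate 1 (adjusted p = 0.0476). The cause was not tested.

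In the interaction, 150 of the members' 160 alternative values kept their side of the threshold, 7 lost it (5 of Oas1b, 2 of Oas3) and 3 gained it (1 of Oas1c, 2 of Oas1g). Those of Oas1g are no independent support, as it was tested only through the wild type cGAMP libraries. With the number within genotype as a replicate block, Oas3 lost its call (adjusted p = 0.0553) and Oas1c gained one (0.0221), and no other member's call in any comparison changed. Across genes, deviations of equally numbered libraries correlated at 0.0834 to 0.3 in wild type and 0.0958 to 0.288 in Tmem173-/- pairs, not all over 0.1, so they were not treated as pairs. Every library correlated best with its own number, a hint from the data and not from the design. No sign changed where a member was called.

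The Oasl1 share of the family depended on the length used. Per kilobase of the table's length it was 69.7% in wild type cGAMP libraries, against 66.1% by FPKM, 33.4% in Tmem173-/- cGAMP libraries and 34.4% in Tmem173-/- control libraries. By CPM without length it was 57.0% in wild type cGAMP and 31.3% in wild type control libraries, 30.9% in Tmem173-/- cGAMP and 32.1% in Tmem173-/- control libraries. Depth limits Oas1g, Oas1e and Oas1h, and 3 libraries per group limit the intervals of the rest.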

Other observations

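The 16 letters that stand before Oas1a and Oas1g occur in 7 of 32851 promoter windows, which belong to Oas1a, Oas1g, Oas1c, Apol9a and Apol9b. The Apol9 genes encode apolipoprotein L relatives and were looked up after this match was seen. Whether reads of Apol9a and Apol9b can be told apart was not examined, so low counts need not mean low expression. Apol9a had 1 count in wild type cGAMP libraries and none in the other groups. Apol9b had 0.692, 0.344 and 1.17 CPM in wild type cGAMP libraries, against 0.784, 0.915 and 1.17 CPM in wild type control libraries. These groups overlap, and the log2 difference was -0.37 (SE 0.43, edgeR adjusted p = 0.502, limma-voom interval -1.50 to 0.46).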
